A study of Mus musculus with 8 samples.

Results

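The genes described here are 48 genes of G2 phase, mitosis and chromosome segregation, from the cyclins and kinases of mitotic entry to the proteins of the kinetochore, spindle and dividing cell. They were chosen by name and function. Each is represented by its brightest probe set with exactly 1 gene symbol, and its values were analysed as log2(intensity + 16). Such a probe set was found for 47 of the 48 genes, and all 47 passed the filter on dim genes, out of 12394 genes tested in all. Ccnb1 is not analysed here, because the probe annotation used pairs no probe set with its symbol alone.

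Most genes of this kind are transcribed in waves: their promoters are held silent in early G1 by the DREAM complex and switched on from S phase to mitosis by B-Myb and FoxM1. Cdk1 bound to its cyclins drives entry into mitosis, the checkpoint proteins hold the cell until each kinetochore is attached to the spindle, and the anaphase-promoting complex then removes the cyclins. Embryonic stem cells cycle fast with a short G1, so these genes are strongly transcribed in them. Condensin folds mitotic chromosomes and cohesin holds sister chromatids together, which places the proteins targeted here in the same stage of the cycle.

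The cells were V6.5 mouse embryonic stem cells, an established line. Short hairpin RNAs were brought in by virus with polybrene at 8 µg/ml. Cells were selected with puromycin at 4 µg/ml for 4 days and lysed on day 5, and biotin-labelled RNA made from 100 ng of total RNA was hybridised to Affymetrix mouse arrays. The 4 groups of 2 arrays were knockdowns of CapH2 (gene Ncaph2, a subunit of condensin II), Smc2 (the subunit that condensin I and II share) and Smc1 (gene Smc1a, a core subunit of cohesin), and a control hairpin against GFP, all of which went through infection and selection. CapH2 was targeted with hairpins 3 and 4 and Smc2 with hairpins 1 and 2, on 1 array per hairpin. Smc1 and GFP had 1 hairpin each and 2 biological replicates, so effects of that single hairpin on other genes cannot be told apart from those of its target, and in the CapH2 and Smc2 groups the spread between arrays includes the difference between hairpins. Values are given below in the order hairpin 3 and hairpin 4 for CapH2, hairpin 1 and hairpin 2 for Smc2, and replicate 1 and replicate 2 for Smc1 and GFP.

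All arrays had been scaled to a common mean, with medians between 62.5 and 74.5 intensity units. The targeted genes were lowest in their own knockdowns, with log2 changes of -2.96 for Ncaph2, -1.64 for Smc2 and -2.95 for Smc1a (limma adjusted p = 0.00115, 0.0154 and 7.81e-05). Of 6 stem cell markers, 3 were called lower in the Smc1 knockdown, against 4.69% of all genes. Those 3, the core pluripotency genes Pou5f1, Nanog and Sox2, fell by 0.82, 0.73 and 0.88 on the log2 scale (limma adjusted p = 0.0340, 0.00525 and 0.0143). They were still bright, Pou5f1 at 5521 and 9012. Over the 6 markers the median difference from the GFP mean was -0.68 and -0.32 on the Smc1 arrays. On the CapH2 arrays it was -0.29 and -0.23, and on Smc2 -0.17 and -0.06. Of 22 markers of fibroblasts, the cells of feeder layers, 16 were tested, 2 rose in the Smc1 knockdown (Col3a1 by 1.92 and Pdgfra by 1.37, where 9.3% of all genes were called higher), and none was listed at 0. In that knockdown 5 of the 16 lay below 0, the lowest being Postn at -1.16 (limma adjusted p = 0.0736). Their summed intensity was 25015 and 21674 on the CapH2 arrays, 18694 and 21438 on Smc2, 30287 and 32734 on Smc1, and 20898 and 31163 on GFP, and the part of such cells in the results on the mitotic genes was not tested.

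Many of the mitotic genes shared motifs in their promoters. RefSeq promoters of 300 bases (250 before the start site and 50 after, mouse assembly GRCm38.p6) were at hand for 39 of the 48 genes, 42 promoters in all. The motif TTTGAA, read as TTCAAA on the other strand, is the cell cycle genes homology region through which DREAM and B-Myb complexes bind, and CCAAT, read as ATTGG on the other strand, is the box bound by NF-Y. TTTGAA was present in 32 of the 42 promoters (76.2%), against 17.9% of the 32851 promoters in the table and 10.5% of 38 promoters of S phase genes. With its first base between position -50 and 45 it was present in 28 of the 42 (66.7%), against 4.94% of all promoters and 5.26% of those of the S phase genes. CCAAT was present in 34 of the 42 (81.0%), 37.4% of all promoters and 60.5% of the S phase promoters. The 6 stretches that follow are the 110 bases up to the start site. Both motifs are in capitals on either strand where they lie wholly within the stretch. The first 5 were picked after the motif positions were known because they hold both motifs before the start site, and Cdca3 because it was called in the Smc1 knockdown. No promoter of Dlgap5 or Spc24, the other two genes called there, was among those used.
Cdk1, chr10:69352913-69353022, minus strand: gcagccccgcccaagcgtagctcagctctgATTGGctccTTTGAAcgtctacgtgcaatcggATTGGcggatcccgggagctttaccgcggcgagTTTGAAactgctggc
Cdc20, chr4:118437344-118437453, minus strand: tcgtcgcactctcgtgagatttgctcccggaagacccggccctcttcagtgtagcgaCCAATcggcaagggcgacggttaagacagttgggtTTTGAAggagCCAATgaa
Ube2c, chr2:164769819-164769928, plus strand: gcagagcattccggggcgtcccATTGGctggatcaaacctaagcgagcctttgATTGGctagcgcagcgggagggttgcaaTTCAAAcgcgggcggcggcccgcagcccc
Ccnf, chr17:24251410-24251519, minus strand: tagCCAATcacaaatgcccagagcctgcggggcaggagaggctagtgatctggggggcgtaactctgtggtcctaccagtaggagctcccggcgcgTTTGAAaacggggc
Kif11, chr19:37376272-37376381, plus strand: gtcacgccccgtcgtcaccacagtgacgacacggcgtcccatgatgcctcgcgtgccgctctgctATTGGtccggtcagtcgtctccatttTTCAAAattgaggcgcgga
Cdca3, chr6:124830066-124830175, plus strand: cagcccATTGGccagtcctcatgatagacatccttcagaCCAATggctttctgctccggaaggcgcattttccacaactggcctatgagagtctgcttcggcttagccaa
In Cdk1 the motif TTTGAA began at position -71 and again at -15. In Cdc20, Ube2c, Ccnf and Kif11 the copy next to the start site began at -18, -29, -14 and -19. The TTTGAA of Cdca3 began at 31, beyond the stretch shown, and a further CCAAT began at -4 and ran past its end. The 29 genes with TTTGAA had median log2 differences from GFP of -0.23, -0.06 and -0.22 in the CapH2, Smc2 and Smc1 knockdowns, the 9 measured genes whose promoter lacked it -0.20, 0.04 and -0.10, and the 9 without a promoter sequence -0.28, -0.16 and -0.25. These medians were not tested against each other.

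**Figure D1:**
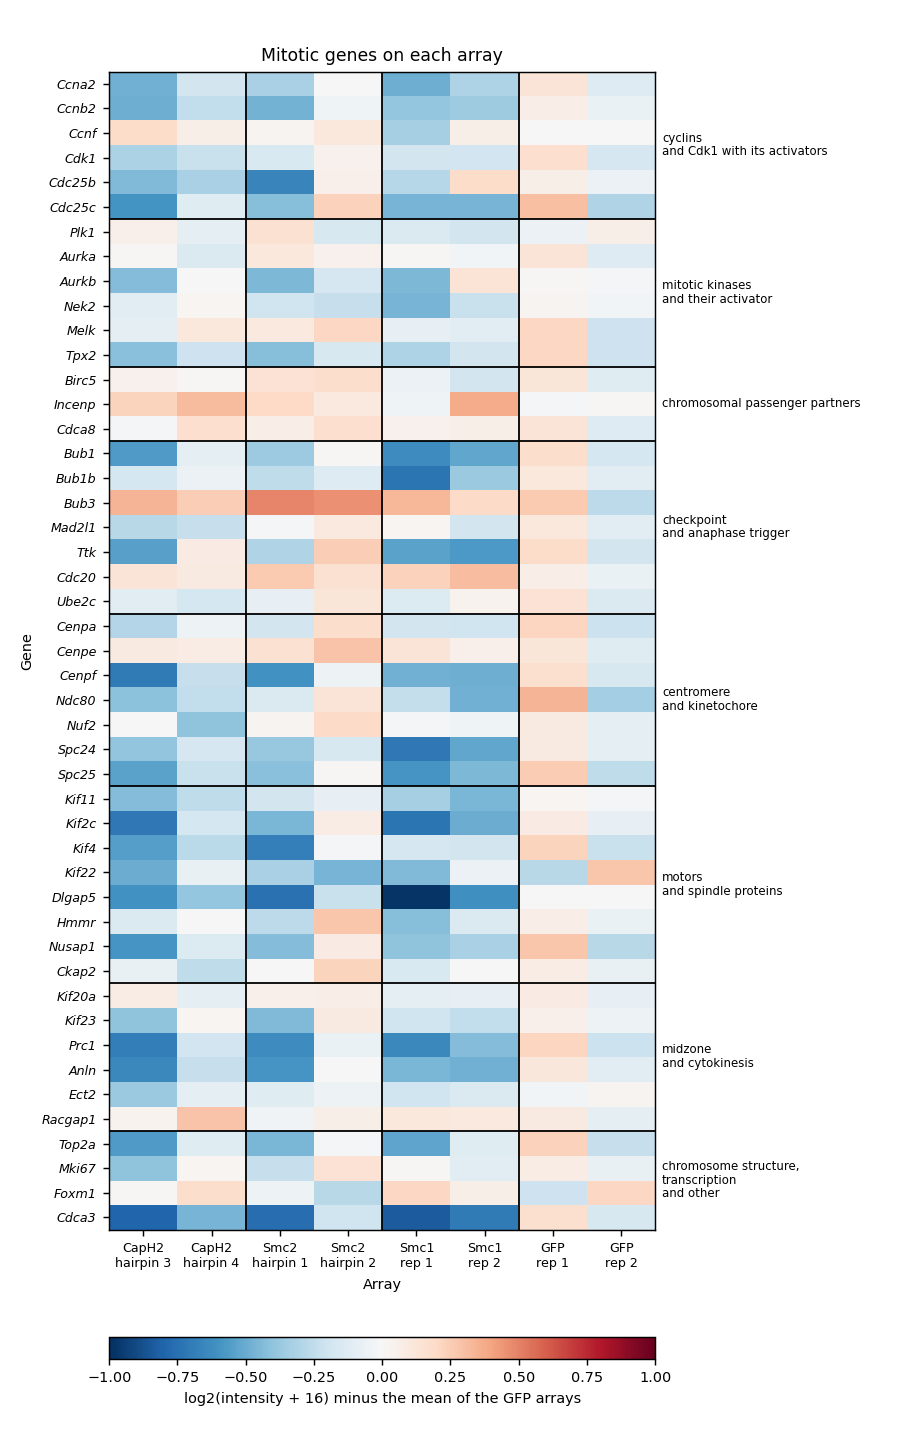
Each row is 1 of the 47 mitotic genes and each column 1 of the 8 arrays, with genes grouped by role and arrays by knockdown. Colour shows log2(intensity + 16) minus the mean of the 2 GFP arrays. The median over genes was -0.40 on CapH2 hairpin 3 and 0.05 on Smc2 hairpin 2, and GFP replicate 1 lay above GFP replicate 2 in 41 of 47 genes.

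In the CapH2 knockdown, which addresses the role of condensin II, no mitotic gene was called. The 47 log2 differences from GFP ran from -0.63 for Cdca3, a trigger of mitotic entry, to 0.29 for Bub3, a checkpoint protein, with a median of -0.23 against 0.01 over all genes tested. They lay below 0 in 37 genes, against 48.7% of all genes. Limma called 0 of the 47 at an adjusted p below 0.05, where 0.0161% of all genes were called, and the smallest adjusted p was 0.302. At an unadjusted p below 0.05 it gave 3 lower genes (Cdca3, Dlgap5 and Ccnb2; 5.07% of all genes) and 0 higher (7.56% of all genes). Both CapH2 arrays lay under both GFP arrays in 16 genes (21.9% of all genes) and above them in 3, Ccnf, Incenp and Cdc20 (25.3% of all genes). The 95% interval of the difference lay between -1 and 1 in 46 of the 47, against 65.8% of all genes.

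The Smc2 knockdown, which targets a subunit of both condensins, also held no called mitotic gene. The differences ran from -0.48 for Dlgap5, a spindle protein, to 0.47 for Bub3, with a median of -0.10 (-0.01 over all genes), and lay below 0 in 31 genes (50.5% of all genes). The sign of this median was not stable: it was 0.05 without Smc2 hairpin 1, 0.03 without GFP replicate 1 and 0.01 with median centring, and -0.23 and -0.22 without Smc2 hairpin 2 and GFP replicate 2. Limma called 0 of the 47, with 0.0161% of all genes called, and the smallest adjusted p was 0.311. At an unadjusted p below 0.05 there were 2 lower genes, Dlgap5 and Cdca3 (5.31% of all genes), and 1 higher, Bub3 (7.28%). Both Smc2 arrays lay under both GFP arrays in 9 genes (21.7% of all genes) and above them in 6, Bub3, Incenp, Cenpe, Cdc20, Birc5 and Ccnf (23.1%). All 47 intervals lay between -1 and 1, against 65.2% of all genes.

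In the Smc1 knockdown, which targets a core subunit of cohesin, 3 mitotic genes fell: Dlgap5, Cdca3 and Spc24, a kinetochore subunit. None rose. The 47 differences ran from -0.80 for Dlgap5 to 0.27 for Cdc20, the activator of the anaphase-promoting complex, with a median of -0.19 (0.03 over all genes), and 40 lay below 0 (47.7% of all genes). The 3 lower calls among the 47 were near the 4.69% of all genes called lower. The 0 higher calls stand beside 9.3% of all genes called higher, out of 14% called in either direction. At an unadjusted p below 0.05 there were 14 lower genes (12.6% of all genes) and 1 higher, Cdc20 (18.7%). Both Smc1 arrays lay under both GFP arrays in 23 genes (28.4%) and above them in 2, Cdc20 and Racgap1 (34.5%). The interval lay between -1 and 1 in 39 genes (54.5% of all genes). The 3 calls were lost without either Smc1 array or either GFP array, without the filter on dim genes, without the intensity trend and with the replicate block, while limma on the Smc1 and GFP arrays alone called 9 mitotic genes, these 3 among them.

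**Figure D2:**
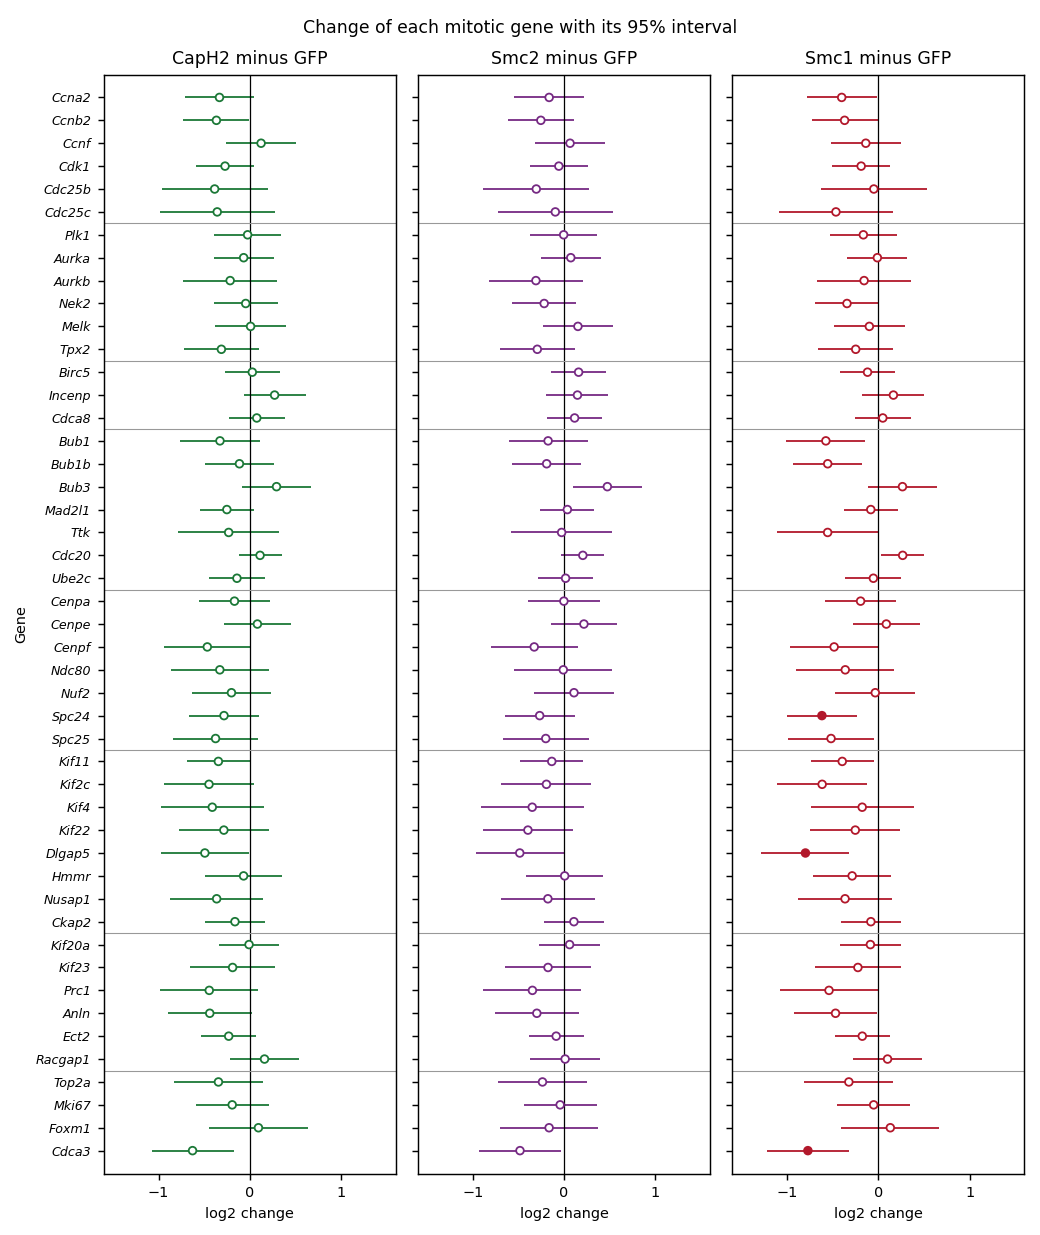
Points show the log2 difference of each mitotic gene from GFP in the CapH2, Smc2 and Smc1 knockdowns, from 2 arrays per group, and lines its 95% interval from limma. Filled points mark the 3 genes called, Dlgap5 (-0.80), Cdca3 (-0.77) and Spc24 (-0.62), all in the Smc1 knockdown. All 3 panels share the GFP arrays, so their differences are not independent.

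These comparisons share both GFP arrays. The other 2 comparisons take no difference from the GFP arrays. All 8 arrays were fitted together, so the GFP arrays still entered the estimate of the spread. Between the CapH2 and Smc2 knockdowns 0 mitotic genes were called by limma (0.00807% of all genes), and 0 had an unadjusted p below 0.05 in either direction (0.331% of all genes lower in CapH2 and 0.702% higher). The differences, CapH2 minus Smc2, ran from -0.32 for Ndc80 to 0.26 for Foxm1, with a median of -0.13 (0.02 over all genes). They lay below 0 in 39 of 47 genes (46.6% of all genes), and the arrays did not overlap in 12 genes lower in CapH2 (10.3% of all genes) and 3 higher (12.5%). All 47 intervals lay between -1 and 1 (78.9% of all genes). Leaving out CapH2 hairpin 3 changed the median to 0.01, and leaving out Smc2 hairpin 2 changed it to 0.04.

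Between the Smc1 knockdown and the mean of the CapH2 and Smc2 knockdowns limma called 0 mitotic genes, where it called 7.75% of all genes, 2.23% lower and 5.53% higher. The smallest adjusted p, 0.129, belonged to Bub1b, a checkpoint kinase, at -0.40 (SE 0.145). The differences ran from -0.42 for Ttk to 0.30 for Cdc25b, with a median of -0.09 (0.02 over all genes), and 35 lay below 0 (47.1% of all genes). At an unadjusted p below 0.05 there were 2 lower genes, Bub1b and Spc24 (9.04% of all genes), and 0 higher (14.6%). Both Smc1 arrays lay under all 4 condensin arrays in 3 genes, Bub1b, Spc24 and Birc5 (14.6% of all genes), and above them in 0 (20.5%). All 47 intervals lay between -1 and 1 (69.9% of all genes). The fall of Dlgap5, Cdca3 and Spc24 against GFP was not shown to be larger than their differences in the condensin knockdowns: the Smc1 values lay below those by 0.31, 0.22 and 0.34 (limma adjusted p = 0.363, 0.508 and 0.200).

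**Figure D3:**
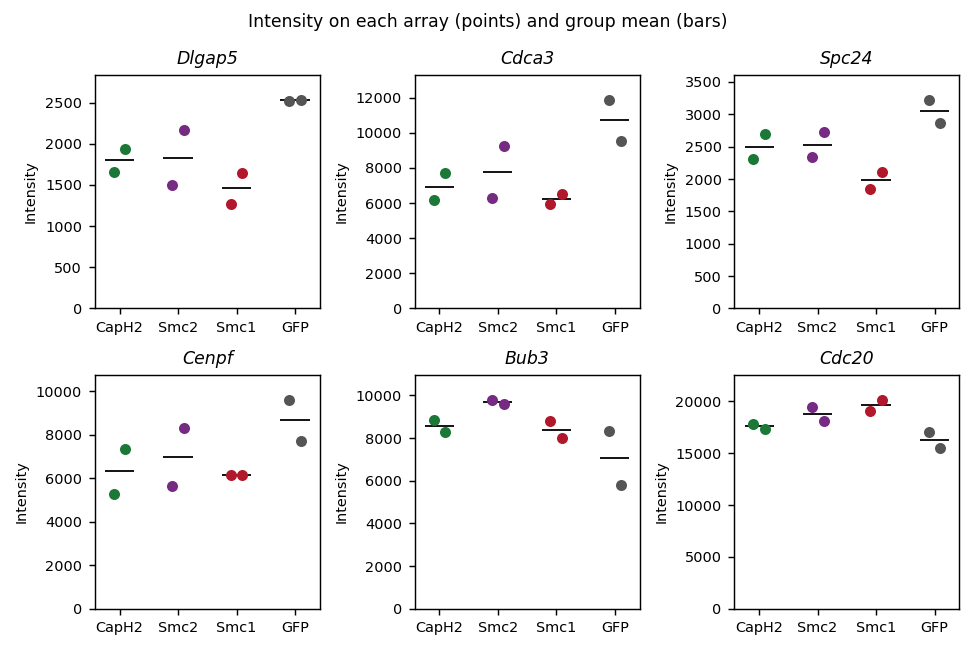
Intensity of 6 mitotic genes on each array (points) with the mean of each group of 2 (bars), each axis starting at 0. The GFP arrays of Dlgap5 (2519 and 2536), Cdca3 (11884 and 9536) and Spc24 (3227 and 2860) lay above all 6 knockdown arrays, and those of Cdc20 (17056 and 15528) below all 6.

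Among the motors and spindle proteins, Dlgap5, which stabilises microtubules at kinetochores, had the largest fall. Its intensity was 1660 and 1934 on the CapH2 arrays, 1500 and 2163 on Smc2, 1271 and 1649 on Smc1, and 2519 and 2536 on GFP. The GFP arrays lay above all 6 others, and CapH2 hairpin 3, Smc2 hairpin 1 and Smc1 replicate 1 were the lower arrays of their groups. The log2 change was -0.80 in the Smc1 knockdown (SE 0.216, limma adjusted p = 0.0371), to 57.8% of GFP. The differences in CapH2 and Smc2 were -0.49 and -0.48 (adjusted p = 0.390 and 0.395). Its second probe set differed by -0.32, -0.44 and -1.16 in the CapH2, Smc2 and Smc1 knockdowns.

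The other motors and spindle genes were not called. Kif2c, a microtubule depolymerase of the centromere, had the next largest difference in the Smc1 knockdown, -0.61 (limma adjusted p = 0.0908), with 3863 and 4530 on Smc1 and 6782 and 6065 on GFP. Kif11, the motor that pushes spindle poles apart, had 2386 and 2196 on the Smc1 arrays and 3053 and 2975 on GFP, a difference of -0.39 (adjusted p = 0.117). For both genes the Smc1 and GFP arrays did not overlap. Kif22, a chromosome arm motor, measured 4184 and 5618 on CapH2, 4711 and 4276 on Smc2, 4348 and 5661 on Smc1, and 4871 and 7168 on GFP. Its GFP arrays differed by more than any of its 3 group differences (-0.28, -0.40 and -0.25), and GFP replicate 2 was the higher one, unlike in most mitotic genes. This held for the probe set used only. On the other Kif22 probe sets GFP replicate 1 was the higher one, with GFP values of 3842 and 3732, and of 1682 and 1504. Kif4, a chromosome-bound kinesin, Hmmr, Nusap1 and Ckap2, which bind or organise spindle microtubules, differed in the Smc1 knockdown by -0.18, -0.29, -0.36 and -0.08. All 8 genes of this class lay below 0 in the CapH2 and in the Smc1 knockdown and 6 of them in Smc2, with class medians of -0.35, -0.32 and -0.18.

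At the kinetochore, Spc24, a subunit of the Ndc80 complex that grips microtubules, fell with Smc1. It measured 2302 and 2702 on the CapH2 arrays, 2336 and 2723 on Smc2, 1850 and 2110 on Smc1, and 3227 and 2860 on GFP. Both Smc1 arrays were the lowest of the 8 and both GFP arrays the highest. The log2 change was -0.62 (SE 0.172, limma adjusted p = 0.0417), to 65.04% of GFP, and the differences in CapH2 and Smc2 were -0.28 and -0.27 (adjusted p = 0.512 and 0.523). The annotation used lists no other probe set of this gene alone.

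The partners of Spc24 in the Ndc80 complex were not called in any comparison. In the Smc1 knockdown Spc25 differed by -0.52, Ndc80 by -0.36 and Nuf2 by -0.03 (limma adjusted p = 0.126, 0.342 and 0.929). Cenpf, a large protein of the outer kinetochore, measured 5284 and 7356 on CapH2, 5668 and 8320 on Smc2, 6176 and 6144 on Smc1, and 9611 and 7725 on GFP. Its hairpins split: CapH2 hairpin 3 and Smc2 hairpin 1 were the lowest arrays, while Smc2 hairpin 2 lay between the GFP arrays. The differences were -0.47, -0.33 and -0.48 (adjusted p = 0.404, 0.530 and 0.156), and both other probe sets were lower in all 3 knockdowns too. Cenpe, the kinetochore motor that moves chromosomes to the spindle equator, was 2049 and 2024 on CapH2, 2138 and 2341 on Smc2, 2102 and 1988 on Smc1, and 2090 and 1768 on GFP. Only its Smc2 arrays lay above both GFP arrays (0.22, adjusted p = 0.589). Cenpa, the histone that marks the centromere, differed by -0.17, -0.00 and -0.19.

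Checkpoint genes lay on both sides of 0, and none was called. Bub1b, whose product is part of the complex that inhibits Cdc20, measured 4077 and 4424 on the CapH2 arrays, 3859 and 4201 on Smc2, 2759 and 3545 on Smc1, and 4956 and 4265 on GFP. Its 2 Smc1 arrays were the lowest of the 8, and the difference from GFP was -0.55 (SE 0.168, limma adjusted p = 0.0544). Bub1, the kinase that recruits checkpoint proteins to kinetochores, differed by -0.57 (adjusted p = 0.0763) and Ttk, the kinase that starts the signal, by -0.55 (adjusted p = 0.158). Mad2l1, the protein that converts into the inhibitor, differed by -0.08.

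Bub3, which carries Bub1 and Bub1b to the kinetochore, lay on the other side. Its arrays gave 8827 and 8264 for CapH2, 9792 and 9593 for Smc2, 8803 and 7983 for Smc1, and 8349 and 5823 for GFP. Only the Smc2 arrays lay above both GFP arrays, which were far apart, and the differences were 0.29, 0.47 and 0.27 (limma adjusted p = 0.484, 0.311 and 0.317). The probe set used may also match other transcripts, as its suffix _s_at marks, and the only other Bub3 probe set above the array median on all 8 arrays differed by -0.45, -0.09 and -0.33, so the direction for this gene depended on the probe set.

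Cdc20 had 17831 and 17342 on the CapH2 arrays, 19475 and 18088 on Smc2, 19061 and 20136 on Smc1, and 17056 and 15528 on GFP. All 6 knockdown arrays lay above both GFP arrays. The differences were 0.11, 0.21 and 0.27 (limma adjusted p = 0.671, 0.435 and 0.118), and its 3 probe sets differed by 0.26 to 0.34 in the Smc1 knockdown. With quantile normalization the Smc1 difference, 0.38, was called. Ube2c, the ubiquitin-conjugating enzyme that works with the same complex, differed by -0.14, 0.02 and -0.05.

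The cyclins and Cdk1 with its activators held no called gene. Ccnb2, a B-type cyclin, measured 7005 and 8294 on the CapH2 arrays, 7098 and 9564 on Smc2, 7531 and 7692 on Smc1, and 10301 and 9380 on GFP. Its CapH2 and Smc1 arrays lay under both GFP arrays, and Smc2 hairpin 2 lay between them. The differences were -0.37, -0.25 and -0.37 (limma adjusted p = 0.392, 0.519 and 0.154). Ccna2, the cyclin of S and G2 phase, differed by -0.33, -0.16 and -0.40, and Cdk1 itself by -0.27, -0.06 and -0.19. The other Ccna2 probe set, above the array median on all 8 arrays, differed by 0.10, 0.27 and 0.09. The direction for Ccna2 thus depended on the probe set. Cdc25b and Cdc25c, phosphatases that activate Cdk1, differed by -0.39 and -0.36 in CapH2 and by -0.05 and -0.46 in Smc1. Ccnf, an F-box protein of G2 phase, differed by 0.12, 0.07 and -0.14, and its other probe set by 0.00, -0.26 and -0.34. The class median was -0.34 in CapH2, -0.13 in Smc2 and -0.28 in Smc1.

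Neither the mitotic kinases nor the chromosomal passenger partners held a called gene. Plk1, which acts at centrosomes and kinetochores, had 2903 and 2626 on CapH2, 3115 and 2518 on Smc2, 2542 and 2472 on Smc1, and 2702 and 2920 on GFP, and its differences were -0.02, -0.00 and -0.16. For Aurka, the spindle pole kinase, they were -0.07, 0.07 and -0.01, with 95% intervals of -0.40 to 0.26, -0.25 to 0.40 and -0.34 to 0.32. Aurkb, the passenger kinase, differed by -0.22, -0.31 and -0.16, Nek2 by -0.05, -0.22 and -0.34, Melk by 0.01, 0.15 and -0.10, and Tpx2, which activates Aurka, by -0.31, -0.29 and -0.25. None of these 6 was called, and the smallest adjusted p was 0.167, for Nek2 in Smc1.

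Incenp, the scaffold of the passenger complex, was 8270 and 8813 on the CapH2 arrays, 8107 and 7564 on Smc2, 6873 and 9160 on Smc1, and 6995 and 7149 on GFP. The CapH2 and Smc2 arrays lay above both GFP arrays, while the Smc1 arrays lay on either side of them. The differences were 0.27, 0.15 and 0.17 (limma adjusted p = 0.476, 0.704 and 0.494). Its second brightest probe set differed by 0.24, -0.19 and -0.02. Birc5, survivin, and Cdca8, borealin, differed by 0.03 and 0.08 in CapH2, 0.16 and 0.12 in Smc2 and -0.12 and 0.05 in Smc1. The second brightest Cdca8 probe set differed by -0.13, -0.12 and -0.14, and the dimmest by 0.02, 0.13 and 0.08. The direction for Cdca8 thus depended on the probe set.

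In the midzone and cytokinesis class, Prc1, which bundles the microtubules of the spindle midzone, and Anln, a scaffold of the contractile ring, had the largest negative differences. Prc1 differed by -0.44, -0.35 and -0.54 and Anln by -0.44, -0.30 and -0.47 (limma adjusted p = 0.158 and 0.153 in Smc1). The second Anln probe set, dimmer but above the array median on all 8 arrays, differed by -2.01, -1.81 and -2.12. It measured 1607 and 1204 on GFP and from 259.2 to 526.7 on the knockdown arrays. Anln was called in Smc1 (-1.29) when all its probe sets were averaged. Racgap1, part of the centralspindlin complex, measured 1718 and 2050 on CapH2, 1640 and 1744 on Smc2, 1805 and 1797 on Smc1, and 1783 and 1578 on GFP. Its groups lay close together, and the differences were 0.16, 0.01 and 0.10. Its second brightest probe set differed by -0.13, -0.18 and -0.33, so the direction depended on the probe set. Kif23, its partner, differed by -0.19, -0.18 and -0.22, Ect2, which activates RhoA for the contractile ring, by -0.23, -0.09 and -0.17, and Kif20a by -0.01, 0.06 and -0.09.

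Cdca3, which promotes destruction of the Cdk1 inhibitor Wee1, was the gene lowest against GFP in CapH2. It measured 6146 and 7714 on the CapH2 arrays, 6272 and 9246 on Smc2, 5960 and 6521 on Smc1, and 11884 and 9536 on GFP. The GFP arrays lay above all 6 others. The log2 change in Smc1 was -0.77 (SE 0.201, limma adjusted p = 0.0329), to 58.3% of GFP, and the differences in CapH2 and Smc2 were -0.63 and -0.48 (adjusted p = 0.302 and 0.370). Its other two probe sets were dim, at or below the array median on most arrays, and the mean over all its probe sets was not called in Smc1 (-0.47, adjusted p = 0.139). Top2a, which untangles sister DNA together with condensin, measured 14573 and 19946 on CapH2, 15805 and 21356 on Smc2, 15034 and 19933 on Smc1, and 25382 and 18456 on GFP. GFP replicate 2 lay below the higher array of every knockdown, and the differences were -0.34, -0.24 and -0.32 (adjusted p = 0.528, 0.665 and 0.352). Mki67, which coats mitotic chromosomes, differed by -0.19, -0.04 and -0.05. Foxm1, the transcription factor of many genes described here, lay between 185.8 and 265.9 on the 8 arrays and differed by 0.09, -0.16 and 0.13. Other Foxm1 probe sets above the array median on all 8 arrays differed by -0.50, -0.25 and -0.07, and by 0.16, -0.11 and 0.22. The direction for Foxm1 in CapH2 and Smc1 thus depended on the probe set.

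Shown hairpin by hairpin, the median differences of the mitotic genes within the CapH2, Smc2 and GFP groups were about as large as those between groups. The median difference from the GFP mean was -0.40 on CapH2 hairpin 3 and -0.12 on hairpin 4, -0.23 on Smc2 hairpin 1 and 0.05 on hairpin 2, and -0.28 and -0.18 on the Smc1 replicates. The GFP arrays themselves lay at 0.11 and -0.11. Of the 47 genes, 36 were higher with CapH2 hairpin 4 than with hairpin 3 (76.6%, against 48.6% of all genes, median 0.21) and 39 were higher with Smc2 hairpin 2 than with hairpin 1 (83%, against 55.2%, median 0.23). GFP replicate 1 was higher than replicate 2 in 41 (87.2%, against 47.4%, median 0.22), while Smc1 replicate 2 was higher than replicate 1 in 27 (57.4%, against 55.6%, median 0.03). In 30 of the 47 the first 3 of these differences all had that direction, as did 2591 of all 12394 genes. The order of arrays within a group is arbitrary. Each difference is stated in the direction in which the median of the mitotic genes was positive, so that direction is not a result in itself.

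Several genes differed between both pairs of hairpins. Ttk measured 2504 and 3875 with CapH2 hairpins 3 and 4 and 2969 and 4351 with Smc2 hairpins 1 and 2, differences of 0.63 and 0.55. Kif2c differed by 0.54 and 0.53, Cenpf by 0.48 and 0.55, and Cdc25c by 0.48 and 0.66. Plk1 went the other way in both, by -0.14 and -0.31, and Nuf2 in CapH2 only, by -0.40. Across the 47 genes the CapH2 and Smc2 hairpin differences had Pearson's r = 0.61 and Spearman's rho = 0.63, against 0.41 and 0.42 over all 12394 genes. These genes are not independent replicates, and all points share the same 4 arrays. The Smc2 hairpin difference against GFP replicate 1 minus replicate 2, which share 1 hairpin, had r = 0.50 and rho = 0.43. Over all genes these were 0.15 and 0.17. For CapH2 against GFP they were 0.16 and 0.27, and 0.19 and 0.22 over all genes. Smc1 replicate 2 minus replicate 1 had r = 0.15, 0.16 and -0.28 with the CapH2, Smc2 and GFP differences. Over all genes these were 0.26, 0.21 and -0.07. Of the targets, Ncaph2 was at 397.5 and 429.5 with hairpins 3 and 4, and Smc2 at 2234 and 2859 with hairpins 1 and 2. Each value comes from 1 array, and whether target level bears on the mitotic genes was not tested.

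**Figure D4:**
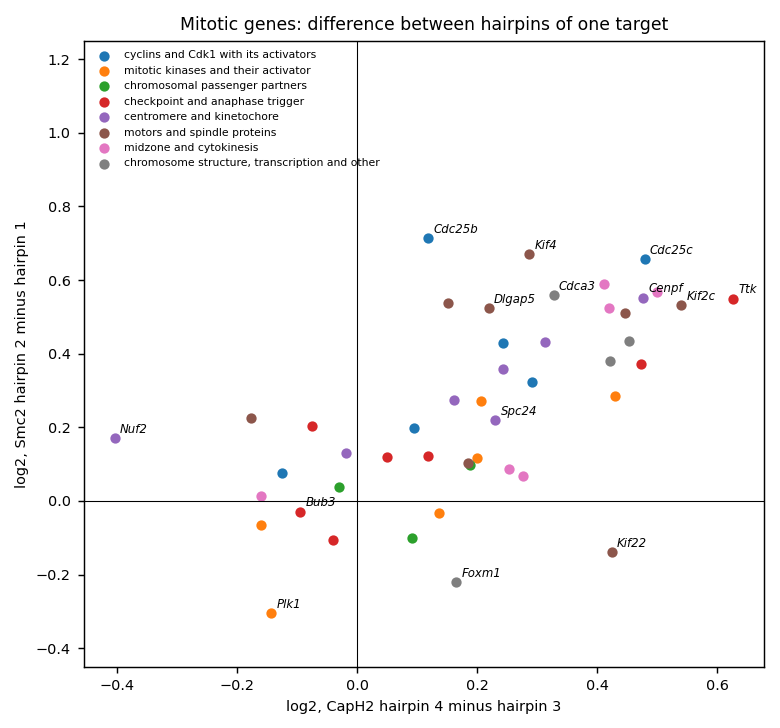
Each point is 1 of the 47 mitotic genes, coloured by role. The x axis is log2 intensity with CapH2 hairpin 4 minus hairpin 3 and the y axis Smc2 hairpin 2 minus hairpin 1. Most points lie at the upper right, with 36 genes right of 0 and 39 above 0.

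The ratio of the 3' to the 5' control probe sets of Actb, a sign of RNA and labelling quality, moved with these medians. It was 1.67 and 1.98 on the CapH2 arrays, 1.82 and 2.18 on Smc2, 1.70 and 1.84 on Smc1, and 2.18 and 2.04 on GFP. Ordered by this ratio, the 8 arrays had the same order as by the median of the mitotic genes, except that Smc2 hairpin 2 and GFP replicate 1 changed places. The medians of all genes lay between -0.03 and 0.06 on the 8 arrays. The same ratio for Gapdh ran only from 0.79 to 0.86. It was 0.86 on Smc1 replicate 2, CapH2 hairpin 4 and both GFP arrays, where the mitotic medians ran from -0.18 to 0.11. With the Actb ratio as a term in the fit, chosen after the values were seen, the median of the mitotic genes was -0.01 in CapH2, -0.02 in Smc2 and -0.00 in Smc1, with 24, 25 and 24 of 47 below 0. In that fit Dlgap5, Cdca3 and Spc24 stood at -0.41, -0.31 and -0.36 in Smc1 and were not called (limma adjusted p = 0.283, 0.282 and 0.266), while 569 of all genes were. Because the Actb ratio orders the arrays nearly as these medians do, medians near 0 in that fit could be foreseen. Both GFP arrays also had a higher ratio than all CapH2 and Smc1 arrays. Ratio and knockdown therefore cannot be fully told apart. The share of cells in G2 or M phase was not measured. In bulk RNA, fewer cells in these phases and less RNA of these genes per cell cannot be told apart.

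**Figure D5:**
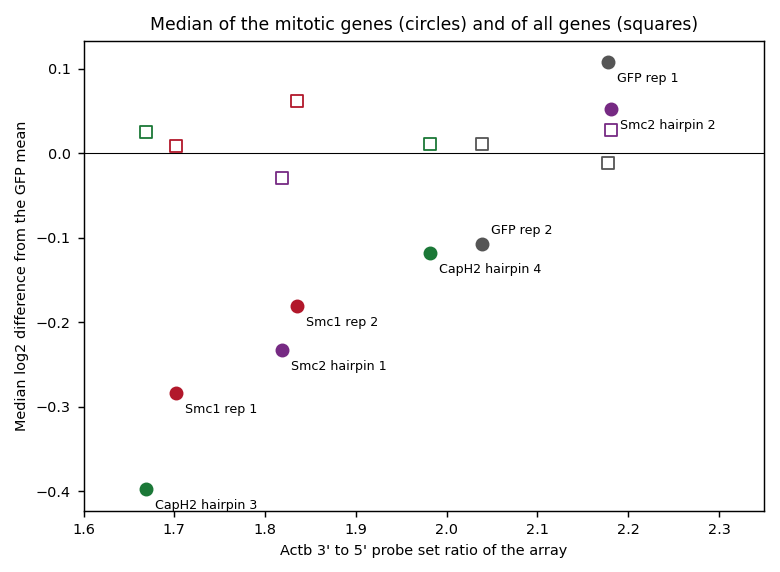
For each array, the x axis gives the Actb 3' to 5' ratio and the y axis the median log2 difference from the GFP mean, for the 47 mitotic genes (circles) and all 12394 genes (squares). The circles run from -0.40 at a ratio of 1.67 to 0.11 at 2.18, and the squares stay between -0.03 and 0.06.

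Further genes of the pathway, 100 in number, were listed by function: other kinetochore, spindle, anaphase-promoting complex, mitotic entry and cytokinesis genes. Of these, 94 were tested and 0 were called in the CapH2 or Smc2 knockdown, with medians of -0.05 and -0.04. In the Smc1 knockdown 6 of the 94 fell, near the 4.69% of all genes called lower, and 1 rose (9.3% of all genes), with a median of -0.21. The 7 calls became 0 without Smc1 replicate 1 or GFP replicate 1, 1 without GFP replicate 2, 3 when Smc1 replicate 2 was left out and 11 without either Smc2 array. The lower ones with the smallest limma adjusted p were Pbk, a mitotic kinase (-1.07, adjusted p = 0.00884), Kif18a, a motor that limits microtubule length (-1.19, 0.00919), and Sgo2a and Sgo1, the shugoshins that protect centromeric cohesin (-1.20, 0.0265, and -0.67, 0.0266). Zwint, a kinetochore protein, was 4107 and 3216 on Smc1 and 1853 and 1569 on GFP, a rise of 1.08 (adjusted p = 0.0105). Against the mean of the condensin knockdowns 3 of the 94 were called lower, near the 2.23% of all genes, and 0 higher (5.53%): Haus6, a subunit of augmin (-0.79, adjusted p = 0.0303), Sgo1 (-0.57, 0.0418) and Cenpp, a centromere protein (-0.63, 0.0494). That count was 0 without either Smc1 array or either GFP array, 1 without CapH2 hairpin 4 and otherwise 3 or 4.

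Genes of S phase, the stage before, were set beside the mitotic genes. Of 41 listed, 38 were tested. Their median was 0.01 and 0.06 on the CapH2 arrays, 0.10 and -0.08 on Smc2, -0.41 and -0.35 on Smc1, and 0.04 and -0.04 on GFP, so both Smc1 arrays stood below the other 6. Limma called 0 of them in CapH2 and Smc2, and in Smc1 7 fell (4.69% of all genes) and 0 rose (9.3%), with a median of -0.37. Those with the smallest adjusted p were Rrm2, a ribonucleotide reductase subunit (-0.64, adjusted p = 0.00731), Gins1 of the replicative helicase (-0.75, 0.0107), Prim1 of the primase (-0.72, 0.0150) and Tk1, thymidine kinase (-0.73, 0.0183). Leaving out 1 array gave 0 calls without Smc1 replicate 1 or GFP replicate 1, 3 without GFP replicate 2, 4 when Smc1 replicate 2 was left out and otherwise 6 to 9. Against the mean of the condensin knockdowns 8 S phase genes were called lower (2.23% of all genes) and 0 higher (5.53%). That count was 0 without Smc1 replicate 1, 1 without CapH2 hairpin 4, 3 without Smc1 replicate 2, 4 without CapH2 hairpin 3 or either GFP array, and 7 and 12 without Smc2 hairpins 1 and 2. Whether the S phase and mitotic genes differed from each other was not tested. Cdkn1a, the inhibitor of cyclin-dependent kinases, gave 2055 and 1649 for CapH2, 1629 and 2396 for Smc2, 5239 and 4976 for Smc1, and 2655 and 3487 for GFP. Its difference was 0.74 against GFP (adjusted p = 0.0510), and it was higher by 1.41 than the mean of the condensin knockdowns (adjusted p = 0.00542).

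Several mitotic genes have more than 1 probe set. There were 106 probe sets for the 47 genes, 96 of them above the array median on at least 2 arrays. Of the 31 genes with 2 or more such probe sets, all of a gene's probe sets had the same sign in 20 for CapH2, 19 for Smc2 and 23 for Smc1. The brightest probe set, the one used, carried the suffix _x_at in 6 genes and _s_at in 5, which mark probes that may also match other transcripts. Values of such genes, Cdc20, Incenp, Kif22 and Bub3 among them, are uncertain to that extent.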

How the data were processed

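Expression was measured on 8 one-colour arrays, 2 per group. The deposited values are intensity on a linear scale for 44903 probe sets. The sources used here do not give the authors' method of summarising probes. Array means, trimmed by 2%, were 488.9 to 490.0, which shows scaling to a common mean, and no further normalization was added. No detection calls were used. Array number, not depth, limits the precision.

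Of the probe sets 34771 had exactly 1 symbol, 926 several and 9206 none. The brightest, by mean log2(intensity + 16), was kept for each of 18140 genes. Genes above the array median on at least 2 of 8 arrays were tested (12394). All arrays were fitted together in limma 3.58.1 (R 4.3.3) as group means with an intensity trend, with 4 residual and 5.97 prior degrees of freedom. A call needed an adjusted p below 0.05 (Benjamini-Hochberg over all genes tested) in 1 of 5 comparisons. The fit was tested on simulated data.

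The genes described, the other lists, the tests and the rule for named genes were chosen with earlier results of these data known. Every array's value is given for genes called and, per comparison with GFP, for the 3 largest rises and falls. Some further genes are shown as examples of their role, and those were chosen after their values were seen. Of other lists, up to 4 called genes each way are named by smallest adjusted p. The replicate numbers of Smc1 and GFP do not establish pairs. Alternatives covered the pseudocount, normalization, filter, probe set rule, trend, samples fitted, replicate block and leaving out each array.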

Additional observations from a re-analysis of the deposited data

How the results depend on the processing

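No mitotic gene was called against GFP in CapH2 or Smc2, or in either direct comparison, under any alternative run, the added Actb term included. The count of 3 in Smc1 became 0 without the filter, 0 without the intensity trend, 0 with the replicate block, 0 with the Actb term and 9 with only the groups compared, and leaving out 1 array gave 0 to 6. It was 0 without either Smc1 or either GFP array, 5 without Smc2 hairpin 1, 6 without Smc2 hairpin 2 and 3 without either CapH2 array. The cause was not tested beyond the fewer arrays. In the replicate block the adjusted p of Dlgap5, Cdca3 and Spc24 was 0.0548, 0.0586 and 0.0613. Deviations of same-numbered Smc1 and GFP arrays had r = 0.07 over 12394 genes, and 2 pairs cannot settle a pairing.

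The median of the mitotic genes was -0.00543 in CapH2, -0.00403 in Smc1 and 0.0521 between CapH2 and Smc2 with the Actb term, and ranged over left-out arrays from -0.398 to -0.104, from -0.354 to -0.0923 and from -0.276 to 0.0413. In Smc2 that range was -0.23 to 0.05. With the Actb term Cenpf and Ttk in Smc1 turned to 0.00787 and 0.00145. Median centring moved the median of all genes in Smc2 by 0.11, to 0.10, and that of the mitotic genes to 0.01, with 23 of 47 below 0. Quantile normalization called 4 genes in Smc1. Genes called in Smc1 among all tested numbered 138 to 2190 over left-out arrays and 2701 with only the groups compared, against 1734, those of the pathway list 0 to 11 and S phase genes 0 to 9. Against the condensin knockdowns these lists had 0 to 4 and 0 to 12, and both had 0 without the intensity trend.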
